A study of Mus musculus with 8 samples.

Results

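Cd44 encodes a surface glycoprotein that binds hyaluronan, and its transcript is spliced in many ways. The gene was taken by its name: it was 1 of 21690 genes in the expression data, and it held 21 of 1203 rows in the splicing data. Some of those rows repeat a junction under another event name, which left 15 distinct Cd44 entries of 851 with a value. The tissue was epidermis from the back skin of pups harvested 5 days after birth, and 4 control and 4 experimental RNA libraries were sequenced. The labels number them as biological replicates. Control pups were Esrp1flox/flox; Esrp2-/- without Cre. Experimental pups carried the same alleles plus the K5rTA and tetOCre transgenes, a doxycycline-dependent activator under keratin 5 control and the Cre it switches on. Dams of both groups ate doxycycline chow from embryonic day 17 to the harvest. Both groups therefore lacked Esrp2 by genotype, and the comparison is of the added Esrp1 deletion together with any effect of the transgenes. Recombination was directed to the keratin 5 lineage, so other cells in the tissue keep Esrp1.

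As background, the start and the end of the Cd44 transcript are shared by all receptor forms, and a block of variable exons lies between them, in the part that codes for the stem of the extracellular domain. Skipping the whole block gives the standard form, CD44s, found in mesenchymal and blood cells. Epithelial cells include stretches of the block, and keratinocytes are known for a long form that runs from v3 to v10. ESRP1 and ESRP2 are epithelial RNA-binding proteins that favour inclusion of the Cd44 variable exons.

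Cd44 lies on chromosome 2 from 102811141 to 102901665, minus strand (ENSMUSG00000005087.17, GRCm38, GENCODE M21). The longest of its 9 annotated transcripts, Cd44-201, has 19 exons, and exons 6 to 15 are the variable exons v1 to v10. They are 90 to 207 bases long and together hold 1245 bases. All 10 lengths are multiples of 3, against 40.3% of the 103259 internal coding exons of this length range in the mouse annotation. All 10 also start in the same reading phase as exon 16, the first constant exon after the block. Skipping any run of them therefore keeps the reading frame, and the coding part falls from 2340 bases in Cd44-201 to 1095 in Cd44-203, which has none of the 10.

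The joints below are those between the constant exons 5 and 16 and the variable exons, or between the constant exons themselves, that were measured. The 4 measured joints between neighbouring variable exons, from v5 to v9, are not shown. Each gives 30 bases of the upstream exon in lower case and 30 bases of the downstream exon in capitals, 5′ to 3′ on the transcript, from the GENCODE M21 transcript sequences.
exon 5 to exon 16: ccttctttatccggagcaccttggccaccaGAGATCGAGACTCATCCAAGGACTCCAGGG
exon 5 to v3: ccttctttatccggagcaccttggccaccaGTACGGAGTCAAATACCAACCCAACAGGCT
exon 5 to v4: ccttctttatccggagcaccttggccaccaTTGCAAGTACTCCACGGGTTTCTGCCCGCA
exon 5 to v10: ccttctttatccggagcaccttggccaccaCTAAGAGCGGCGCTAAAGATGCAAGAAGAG
v10 to exon 16: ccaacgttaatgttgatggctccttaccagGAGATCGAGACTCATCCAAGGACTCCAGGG

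Of the variable exons, v3, v4 and v10 are those that the measured junctions enter or leave from the constant part, and v8 stands beside a pair of the introns described further on. They are at chr2:102845285-102845410 (v3), chr2:102842836-102842949 (v4), chr2:102834234-102834335 (v8) and chr2:102831330-102831536 (v10), minus strand, GRCm38. ESRP proteins are known to bind RNA rich in UGG repeats, and the letters TGGTGG, searched on the transcript strand, are in capitals where they occur.
v3: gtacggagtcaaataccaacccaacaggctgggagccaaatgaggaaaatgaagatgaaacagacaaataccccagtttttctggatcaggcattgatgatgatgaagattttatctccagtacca
v4: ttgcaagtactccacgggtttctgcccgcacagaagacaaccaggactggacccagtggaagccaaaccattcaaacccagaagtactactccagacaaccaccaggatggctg
v8: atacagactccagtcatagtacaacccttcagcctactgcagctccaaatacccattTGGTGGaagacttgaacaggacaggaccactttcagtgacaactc
v10: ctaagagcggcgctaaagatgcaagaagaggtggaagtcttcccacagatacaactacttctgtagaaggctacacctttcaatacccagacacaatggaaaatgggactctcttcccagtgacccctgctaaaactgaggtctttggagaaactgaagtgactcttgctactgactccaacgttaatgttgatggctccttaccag
TGGTGG was found in 1 of the 10 variable exons, v8, at base 58 of the exon, against 8.85% of internal coding exons of the same length range. On the opposite strand it was also found in 1 exon, v4, against 6.86%. Introns were not searched, and these letters are not a binding site by themselves.

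The targeted gene was lower where the labels say so, and the libraries differed in ways the groups do not explain. Levels are in TPM, a share of transcripts scaled for length, and a gene at or under 1 TPM is listed at 0. Esrp1 stood at 131 to 162 TPM in control and 49.8 to 75.6 TPM in experimental libraries (log2 change -1.13, limma adjusted p 0.0112). These values sum all transcripts of the gene, so the share of intact Esrp1 RNA that remained was not measured. Esrp1 splicing also differed: of the reads at 1 exon, a spliced junction took 0.953 in control and 0.147 in experimental epidermis. That was the largest difference among 13 Esrp1 entries in the authors' deposited splicing data. Esrp2, disrupted in both groups, was at most 5.28 TPM. Mitochondrial genes made up 17.5% to 18.2% of listed TPM in experimental libraries 2 and 4 and 10.6% to 12.6% in the other 6. Without libraries 2 and 4 the Esrp1 change was -0.99 with a limma adjusted p of 0.154. Markers of the labelled tissue were high: 12 keratinocyte genes summed to 47300 to 63000 TPM in control and 60500 to 92200 TPM in experimental libraries. Most of that sum was Krt1, Krt10 and Lor, whose means were higher in experimental libraries. Of the 12 genes, 8 had a log2 change below 0 (median -0.16). The basal keratin Krt5 read 3100, 2620, 1020 and 316 TPM in controls 1 to 4, with a mean of 1760 TPM against 796 TPM in experimental libraries. Other cell types were read from their markers, with control before experimental libraries. Those of T cells summed to 1.84 to 30.2 and 6.64 to 27.6 TPM, and those of Langerhans cells and macrophages to 241 to 862 and 320 to 613 TPM. Fibroblast markers summed to 20.7 to 112 and 32.6 to 58.5 TPM, with Lum, Pdgfra and Pdgfrb listed at 0 in all libraries, as were all 5 endothelial markers. Melanocyte markers summed to 34.0 to 146 and 28.1 to 76.6 TPM, erythroid markers to 181 to 9580 and 222 to 4180 TPM, and hair follicle markers to 5920 to 39400 and 1420 to 10200 TPM. The ranges of both groups overlapped for each list detected, and 0 of the marker genes tested passed limma at an adjusted p of 0.05. All 12 hair follicle markers tested were below 0 (median log2 change -1.57). At an unadjusted limma p under 0.05, which 16.9% of all genes tested reached, 8 of these 12 passed. At or below that share were the 2 of 12 keratinocyte markers, the 1 of 10 for Langerhans cells and macrophages and the 0 elsewhere. In a bulk sample, fewer cells of a type and less RNA per cell cannot be told apart, and the part of these cells in the Cd44 values was not tested.

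In experimental epidermis most reads leaving exon 5 skipped the whole block of variable exons, and in control epidermis few did. Splicing was measured as PSI: of the reads that leave or enter 1 exon, the fraction that takes a given junction or stays in the intron. The authors' MAJIQ analysis estimated 1 PSI per group over its libraries, so no PSI of a single library, no SD and no test over libraries can be given. Among reads leaving exon 5, the skipping junction from 102853015 to exon 16 (102828610) had a PSI of 0.084 in control and 0.838 in experimental epidermis. The authors' deposited table put the difference at 0.775, experimental minus control, with a posterior probability of 1.0 that it is at least 0.15 in size. That difference is MAJIQ's own expected value and is not the subtraction of the PSI values. Seen from the acceptor of exon 16, the same junction had a PSI of 0.068 in control and 0.627 in experimental epidermis, a difference of 0.549 in the authors' deposited table. Skipping thus stood higher in experimental epidermis at both of its ends. GENCODE M21 holds this junction in 1 transcript, Cd44-203.

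**Figure D1:**
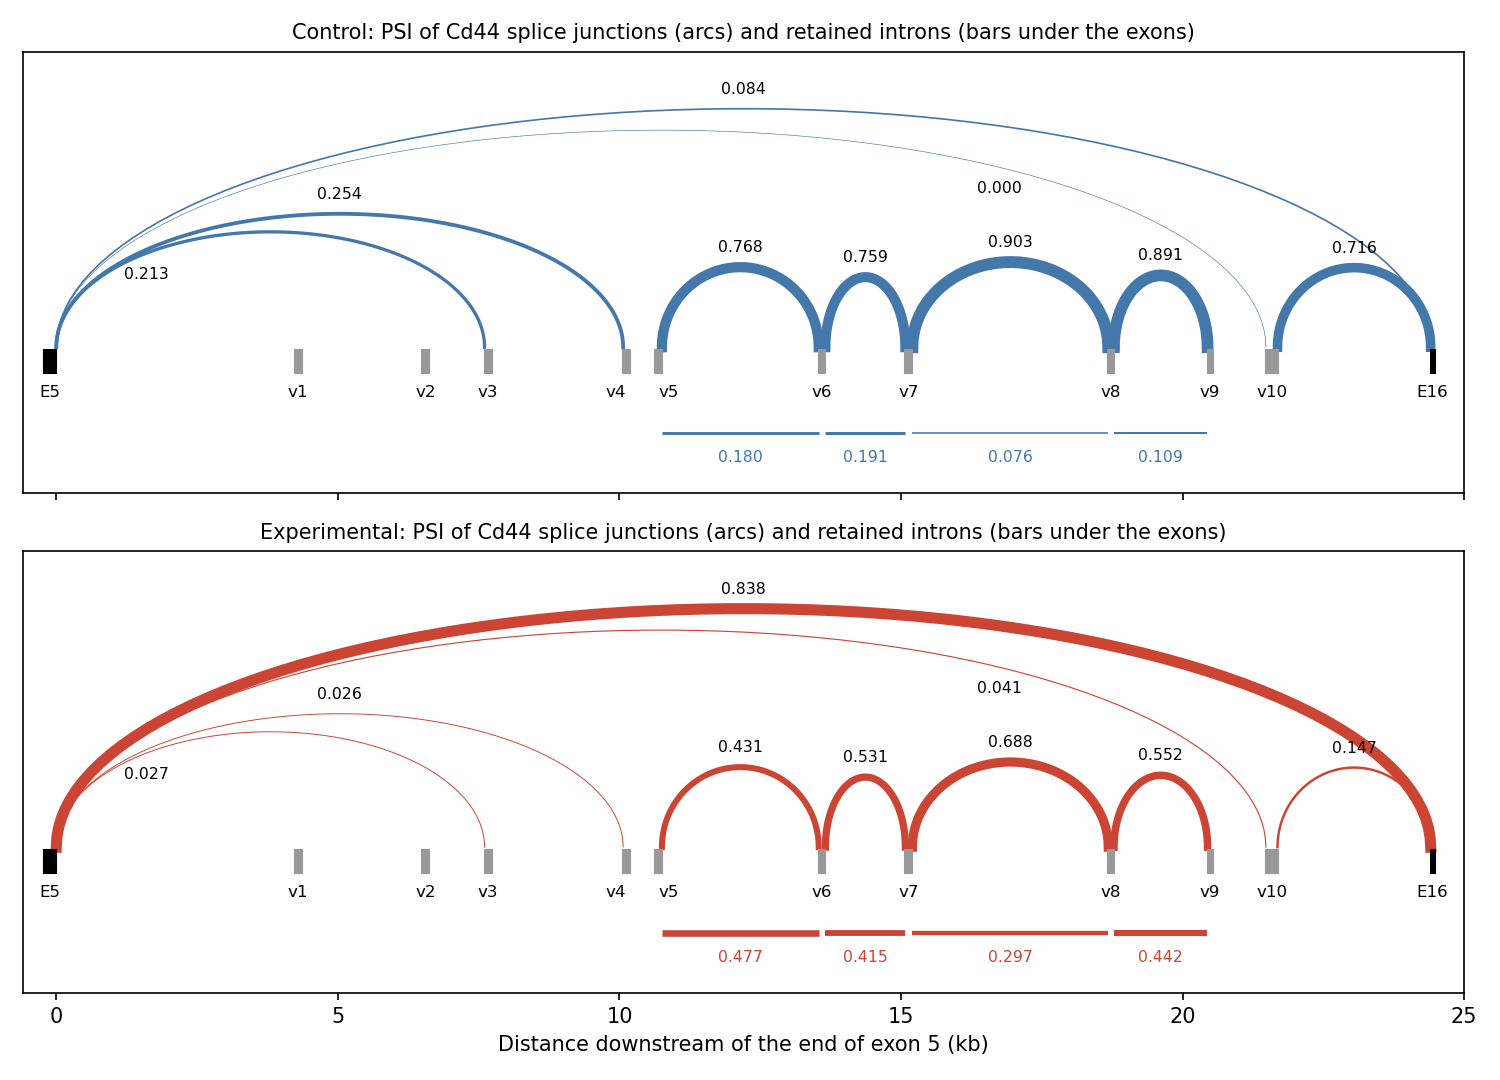
Map of the Cd44 variable block in control (top) and experimental epidermis (bottom), with distance downstream of exon 5 in kb on the horizontal axis, exons as boxes, spliced junctions as arcs and retained introns as bars, line width and numbers giving PSI (at exon 5 for junctions leaving exon 5, at the downstream exon for the others). The long arc from exon 5 to exon 16 goes from 0.084 to 0.838, while the arcs into v3 and v4 and the arc from v10 to exon 16 become thin.

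The listed routes from exon 5 into v3 and v4 were used less in experimental epidermis. The junction from exon 5 to v4 (102842949) had a PSI of 0.254 in control and 0.026 in experimental epidermis, a difference of -0.235 with a probability of 1.0 in the authors' deposited table. The junction from exon 5 to v3 (102845410) had PSI values of 0.213 and 0.027. Its difference of -0.192 had a probability of 0.891 in the authors' deposited table, below the level of 0.95 used here to call an entry. The v4 entry is annotated in Cd44-208, while the pair of exon 5 and v3 is marked as absent from the annotation although both exon edges are annotated. The ratio of the v3 to the v4 junction was 0.839 in control and 1.04 in experimental epidermis, and no error can be given for it. Together the v3 and v4 junctions held a PSI of 0.467 in control and 0.053 in experimental epidermis, so skipping went from 0.18 to 15.8 times their sum. The 4 junctions listed at exon 5 add up to 0.551 in control and 0.932 in experimental epidermis. The remaining 0.449 and 0.068 are not listed and are not analysed here. In the splicing data the exon behind these shares spans 102851893 to 102853236, past the annotated end of exon 5 at 102853015. The remainder therefore cannot be assigned to this donor.

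The way out of the block changed in the same manner. At the acceptor of exon 16, the junction from v10 (102831330) had a PSI of 0.716 in control and 0.147 in experimental epidermis, and the authors' deposited table put the difference at -0.576 with a probability of 1.0. This junction ends the block in 7 of the 8 annotated coding transcripts. The ratio of skipping to v10 use at exon 16 was 0.095 in control and 4.27 in experimental epidermis, a 44.9-fold change in the ratio. The unlisted share at exon 16 was 0.216 in control and 0.226 in experimental epidermis.

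A junction that joins exon 5 straight to v10, annotated in Cd44-206, was at a PSI of 0.0 in control epidermis at both of its ends. In experimental epidermis it had a PSI of 0.041 at exon 5 and 0.179 at the acceptor of v10. The authors' deposited table gave these differences as 0.003 (probability 0.0) and 0.151 (probability 0.513), so neither was called. At the acceptor of v10 it was the only entry listed, and the other 0.821 in experimental epidermis is not assigned.

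Within the block, introns were retained in a larger share of the reads at the variable exons. The intron between v8 and v9 (102832573 to 102834233, 1661 bases) had a PSI of 0.109 in control and 0.442 in experimental epidermis, and the authors' deposited table put the difference at 0.323 with a probability of 0.999. Its spliced partner went from 0.891 to 0.552. The intron between v5 and v6 (102839478 to 102842260, 2783 bases) had PSI values of 0.18 and 0.477, a difference of 0.281 with a probability of 0.958 in the authors' deposited table. Both of these introns were called, in addition to their spliced partners.

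The other introns of the run lay in the same direction without being called. The intron between v7 and v8 (102834336 to 102837812, 3477 bases) had PSI values of 0.076 in control and 0.297 in experimental epidermis, with a probability of 0.898 in the authors' deposited table. That between v6 and v7 (102837939 to 102839357, 1419 bases) had PSI values of 0.191 and 0.415, with a probability of 0.828 in the authors' deposited table. All 4 introns are marked as absent from the annotation as retained introns. Each PSI here is a share of the reads at the acceptor of 1 variable exon. It therefore says nothing of how many transcripts reach that exon, and no read counts are given beside it. Use of v10 at exon 16 was lower in experimental epidermis, and its part in the intron shares was not tested.

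**Figure D2:**
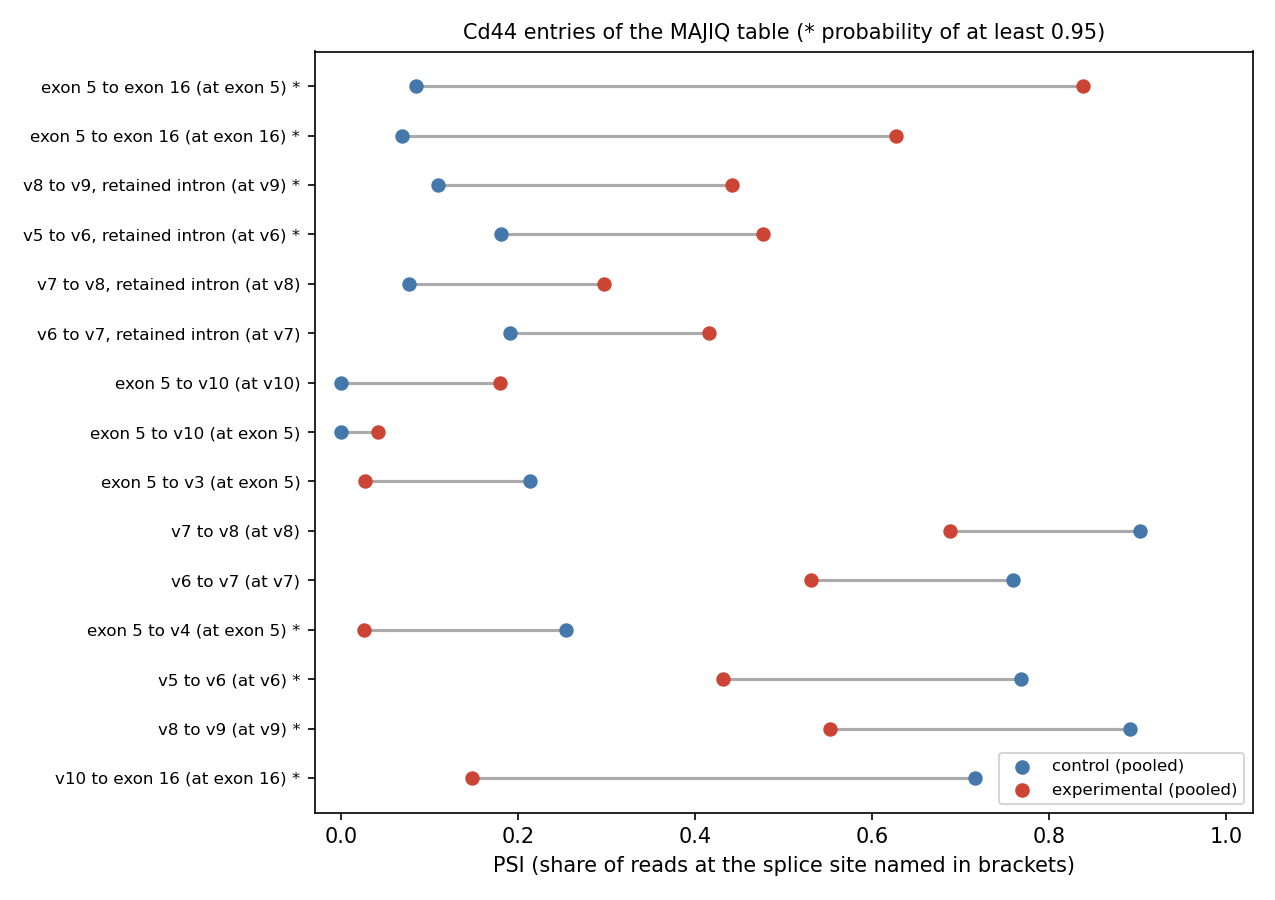
PSI of the 15 distinct Cd44 entries in control (blue) and experimental (red) epidermis, 1 value per group. Brackets name the exon at which each share was taken, and an asterisk marks entries with a probability of at least 0.95. The skipping junction, the 4 introns and the junction from exon 5 to v10 lie to the right in experimental epidermis, and every other spliced junction lies to the left.

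Of the 15 distinct entries, 8 were called, 4 higher and 4 lower in experimental epidermis, in the authors' deposited table. That is 53.3% of the Cd44 entries, against 77.1% of all 851 entries in a table that lists splicing modules with changes, so the Cd44 share is no excess. The 15 entries cover 13 distinct coordinates, as the junctions from exon 5 to exon 16 and to v10 are counted at both ends. The 4 higher entries thus include the skipping junction at each of its ends. Shares at the same end of 1 exon, listed and unlisted together, add up to about 1, so such entries are not independent. MAJIQ sorts the same junctions into 1 cassette, 4 alternative intron, 2 alternative last exon, 1 alternative first exon and 2 multi-exon spanning events. The last and first exon events hold only the junctions from exon 5 to v3, v4 and exon 16. In the annotation v3 and v4 are internal exons, so these event names give no measurement of another transcript end or start.

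The size of the skipping change placed Cd44 among the larger ones. By its largest absolute difference, 0.775 in the authors' deposited table, Cd44 was 18th of 236 genes, and the median over genes was 0.37. Its 15 entries were the most after the 34 of Tspear, and only 4 genes had more retained introns listed than its 4. Its median absolute difference per entry was 0.235, below the 0.305 over all entries. Cassette events showed skipping higher in experimental epidermis in 47 of 69 cases (68.1%), and 3 of these exceeded Cd44. Of 160 intron entries in the whole table, 113 (70.6%) were higher in experimental epidermis. The direction of the Cd44 introns was thus the common one in these data.

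By its largest difference, Cd44 stood near the top of the genes described in the literature as ESRP splicing targets. Of 27 such genes, 18 were in the authors' deposited table, with a median largest difference of 0.661. These genes had 2 to 10 entries each, against 15 for Cd44, and more entries give more room for a large one. At exon 16 the Cd44 skipping junction had a difference of 0.549, below that median. Above Cd44 were Arhgef10l (PSI of its skipping junction 0.113 in control and 0.993 in experimental epidermis), Slk (0.075 and 0.939), Atp6v1c2 (0.01 and 0.843) and Scrib, a polarity gene (inclusion junction 0.144 and 0.908). Just below it came Fgfr2, whose epithelial exon choice is a classical ESRP target, with 1 junction at 0.83 and 0.085. Of these 18 genes 6 had a retained intron listed.

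**Figure D3:**
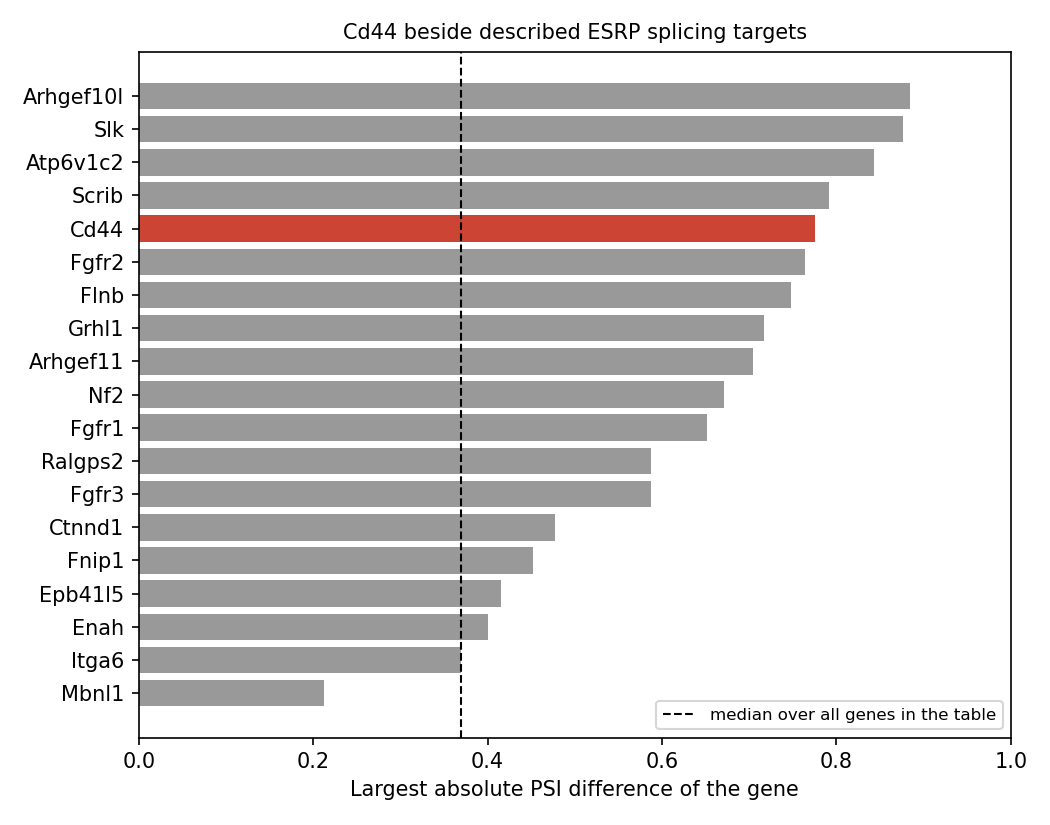
Largest absolute PSI difference between the groups for Cd44 (red) and 18 described ESRP targets (grey), from the authors' deposited table, with the median over all 236 genes as a dashed line. Cd44 at 0.775 lies below Arhgef10l, Slk, Atp6v1c2 and Scrib and above the other 14.

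The summed level of Cd44 transcripts overlapped between the groups. In controls 1 to 4, Cd44 stood at 43.1, 32.8, 35.4 and 24.9 TPM. Experimental libraries 1 to 4 gave 32.4, 26.0, 34.3 and 40.3 TPM. The experimental range lay inside that of the controls, which held both the highest and the lowest library. The means were 34.0 ± 7.5 and 33.2 ± 5.89 TPM (SD, n = 4 each). On the log2(TPM + 1) scale, experimental minus control was -0.025 (SE 0.21, 95% interval -0.48 to 0.43), with a limma adjusted p of 0.963. A two-sided exact permutation of the 8 libraries put p at 0.857, where 0.0286 is the smallest possible. Changes inside that interval are not excluded by these libraries. Larger ones can also miss the threshold, as did the -0.54 of Nf2, described below (limma adjusted p 0.178). The median gene changed by -0.18 on this log2 scale, and after centring each library on its median the Cd44 change was 0.19 (limma adjusted p of 0.478). Without experimental libraries 2 and 4 it was -0.0049, and it was -0.19 and 0.14 without control libraries 3 and 4 or 1 and 2. None of the 18 alternative fits called Cd44, with limma adjusted p between 0.478 and 0.999. Among the 10682 genes tested, of which 2.46% passed an adjusted p of 0.05, 77.6% had a lower control mean than Cd44 and 79.5% a lower experimental mean. The authors' deposited table of differential expression holds 748 genes, all with negative fold changes, and Cd44 is not in it. As only 1 direction is listed, its absence says nothing of a change in the other.

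**Figure D4:**
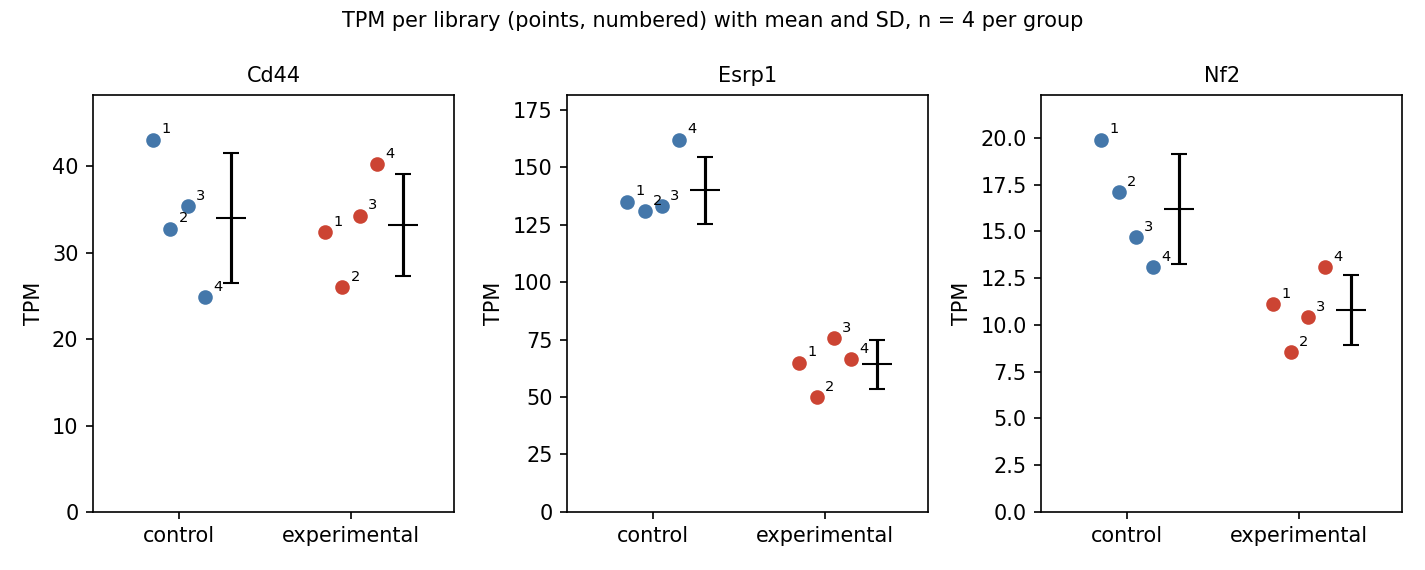
TPM of Cd44, Esrp1 and Nf2 in each control (blue) and experimental (red) library, with the mean and SD beside the points (n = 4 per group). Cd44 values overlap between the groups, Esrp1 values do not, and for Nf2 the lowest control and the highest experimental library both read 13.1 TPM.

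The genes that work with Cd44 were read from lists drawn up from its known biology. In the hyaluronan list (synthases, hyaluronidases, receptors) 0 of 8 tested genes passed limma, and 0 by unadjusted p under 0.05 (16.9% of all genes), with a median log2 change of -0.066 that became 0.15 after centring. No synthase was among the tested genes, and Hmmr was the only receptor among them. Has1 and Has2, a pair of hyaluronan synthases, were listed at 0 in all libraries, and Has3 read above 0 only in control library 1 (1.18 TPM). Hyal2, a hyaluronidase of the cell surface, read 24.0 ± 1.59 TPM in control and 19.2 ± 3.71 TPM in experimental libraries (SD, n = 4 each), with a limma adjusted p of 0.391. Ugdh, which makes the UDP-glucuronate used for hyaluronan, spread from 0 to 9.11 TPM over the controls (9.11, 6.5, 3.18 and 0). Its experimental values were 2.34, 2.09, 2.13 and 2.1 TPM, with a limma adjusted p of 0.447. Its groups overlapped. Neither passed the test.

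Among partners of the Cd44 tail, such as the ezrin family and merlin, 0 of 8 tested genes passed limma, and 1 by unadjusted p under 0.05 (16.9% of all genes), with a median log2 change of -0.17 that became 0.039 after centring. Nf2, which encodes merlin, read 19.9, 17.1, 14.7 and 13.1 TPM in control and 11.1, 8.54, 10.4 and 13.1 TPM in experimental libraries (log2 change -0.54, SE 0.19, limma adjusted p 0.178). Its groups met at 13.1 TPM, and without control libraries 3 and 4 the limma adjusted p was 0.0293. Nf2 was also in the authors' deposited splicing table, where a junction into a cassette exon had a PSI of 0.767 in control and 0.11 in experimental epidermis.

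Of the ligands, coreceptors and sheddases, 0 of 18 tested genes passed limma, and 0 by unadjusted p under 0.05 (16.9% of all genes), with a median log2 change of -0.28 that became -0.069 after centring. Ncstn, a subunit of the gamma-secretase that cuts the Cd44 stub, read 28.8 ± 2.69 TPM in control and 22.2 ± 4.91 TPM in experimental libraries, and Adam17, a sheddase, 14.5 ± 1.3 and 11.4 ± 3.27 TPM (SD, n = 4 each). Spp1, the ligand osteopontin, was listed at 0 in all libraries. Of 28 tested splicing regulators only Esrp1 passed, and it fell, as did 1.54% of all genes tested. Without control libraries 3 and 4, where 22.0% of all genes fell, 12 of the 28 fell. Without control libraries 1 and 2, where 3.24% of all genes fell, 1 did. Of 27 described ESRP targets only Grhl1 fell, from 178 ± 36.5 to 61.4 ± 13.8 TPM (SD, n = 4 each), with a limma adjusted p of 0.0077, or 0.0975 without experimental libraries 2 and 4. Both lists had median log2 changes below 0, at -0.25 and -0.34, against -0.18 for all genes. After centring these were -0.034 and -0.13. In the fit without control libraries 3 and 4, with 22.0% of all genes lower, 2 of 10 hyaluronan genes, 2 of 8 tail partners, 5 of 18 ligands, coreceptors and sheddases and 4 of 27 ESRP targets fell.

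The pattern of Cd44 across the 8 libraries, with control library 1 highest and control library 4 lowest, was most like that of Fam120a (Pearson r = 0.969 of log2 values), Gtf2i (0.956), Morc2a (0.954), Nfkb1 (0.953) and Mef2a (0.951). They were the highest of 7403 genes compared, whose median r was 0.47. Fam120a, for instance, read 38.1, 31.0, 28.7 and 21.5 TPM in control and 29.6, 23.3, 31.7 and 35.4 TPM in experimental libraries. The basal keratins Krt14 and Krt5 had r of 0.69 and 0.619, the suprabasal keratin Krt10 0.444 and Esrp1 0.08. These values describe 8 points that share library composition, and no test was made of them.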

How the data were processed

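Epidermal RNA was extracted with an RNeasy kit and made into NEBNext Ultra libraries, per the labels' protocols. SAMtools 1.9, Salmon 0.14.0, STAR and DESeq appear in the submitters' processing notes, as do the builds mm10 and GRCm38, none with its role. The authors deposited log2 values of TPM per gene; entries at or under 1 TPM are listed at 0. This scale was tested against the mean normalized count signal in the authors' deposited differential expression table, which also gives log2 fold changes and adjusted p-values per the file headers. Genes were put in 4 bins by level. The count per kilobase over the back-transformed value was 0.992 times as large in the lowest as in the highest bin. It was 1.44 times as large if 1 was first subtracted. Bins 2 and 3 stood at 0.985 and 0.869 times the highest bin, or 1.14 and 0.915 times after the subtraction. TPM keeps no depth. Of 21690 gene identifiers 21662 matched a symbol, with the version left off. The authors' deposited MAJIQ table gives, per the file headers, PSI as a fraction per group, its expected difference and the posterior probability of an absolute difference of 0.15 or more. MAJIQ's version and annotation are not given in the sources used here.

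Column names gave a group but no replicate number of the labels, so libraries 1 to 4 are names in table order. Values under 1 TPM were set to 1, and log2(TPM + 1) of genes with mean TPM of at least 1 was fitted with limma 3.58.1 in R 4.3.3 (group only, trended eBayes, two-sided, Benjamini-Hochberg over all genes). A fold change on this scale understates changes of low genes. The design assumed TPM, and values were turned back to TPM first. Junction entries of the same splice site and coordinates were counted once and called at a probability of at least 0.95. The fit was tested on simulated data. Permutation tests used scipy 1.17.1 (Python 3.11.15, pandas 2.3.3, numpy 2.4.6), and figures matplotlib 3.10.9.

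The gene, lists and tests were chosen with earlier results of these data known. Genes were named by rule: Cd44, Esrp1, Esrp2, the members that passed in a list (at most 4) or, with none, its 2 smallest p-values, and the 5 genes most correlated with Cd44 among those with mean TPM of at least 5 and above the floor in every library. 1 gene named by this rule is not reported here. Genes listed at 0, and the genes set beside Cd44 in splicing, were named after their values were seen. Alternatives were other pseudocounts (0.5 and 0.1 TPM), filters, quantile normalization, median centring, no trend, leaving out libraries and other call rules for junctions; those leaving out pairs of libraries were chosen after seeing the data.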

Additional observations from a re-analysis of the deposited data

Results flagged for a closer look

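Of 30 groups of 4 libraries checked for a value far from the others, 2 stood out, and chance alone gives about 1 in 20 such groups. Esrp1 in the control libraries had 1 value, 162 TPM in library 4, above 131 to 135 TPM in the others, with a gap of 0.856 of the group's range. Ugdh in the experimental libraries had 1 value, 2.34 TPM in library 1, above 2.09 to 2.13 TPM in the others, with a gap of 0.862 of the range. Cd44 itself had no such value in either group.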

How the results depend on the processing

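The Cd44 level passed no threshold under any of the 18 alternatives, and its sign was not stable. The log2 change of -0.025 became 0.13 with quantile normalization, 0.19 with median centring and 0.14 without control libraries 1 and 2, and lay between -0.16 and 0.094 when 1 library was left out (0.094, 0.0017 and 0.084 without control library 1, control library 3 and experimental library 2). Of the alternatives 6 had the opposite sign. Other pseudocounts and filters and the fit without a trend left it at -0.025. The number of genes past the threshold, 263, lay between 85 and 578 when 1 library was left out: 121, 91 and 578 without control library 2, 3 and 4, and 140, 135, 85 and 101 without experimental library 1, 2, 3 and 4. It was 2595 without control libraries 3 and 4, 544 without control libraries 1 and 2, and 15 without experimental libraries 2 and 4. The 2.46% of genes passing is therefore tied to these libraries. The marker lists, in which 0 genes passed, depended on the libraries kept and on the normalization. Quantile normalization and median centring, with 269 and 283 of all genes higher, each gave 1 keratinocyte marker higher. Without experimental library 1, with 88 of all genes lower, 1 hair follicle marker was lower. Without control libraries 3 and 4, with 22.0% of all genes lower, 4 of 12 keratinocyte, 4 of 10 Langerhans cell and macrophage, 2 of 2 fibroblast and 1 of 12 hair follicle markers were lower and 1 keratinocyte marker was higher. Without control libraries 1 and 2, with 3.24% of all genes lower, 7 of 12 hair follicle and 1 of 10 Langerhans cell and macrophage markers were lower. Median centring gave 283 higher and 102 lower genes, against 98 and 165. The 8 called Cd44 entries were 14 by an absolute difference of at least 0.10 and 13 with every row counted, 6 at a probability of at least 0.99 or an absolute difference of at least 0.30, and 8 at 0.90. The largest difference, 0.775 at exon 5, was 0.549 for the same junction at exon 16. No paired analysis was possible because the column names carry no replicate number that matches the labels. PSI was estimated by the authors over each group's libraries, so no library could be left out, and reads behind each PSI are unknown.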
